A study of Mus musculus with 6 samples.

Results

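The Sox9 Krt15 hair follicle keratinocytes described here were 491 of the 34834 cells kept from whole mouse dorsal skin. They were chosen on their own transcripts: each had at least 1 unique molecular identifier (UMI, a counted transcript) of Sox9 and of Krt15, at least 5 UMIs of Krt5 and Krt14 together, and more of these than of the differentiation genes Krt1, Krt10 and Krtdap together. Cells with 2 or more UMIs of Krt79 and Defb6, of Nppb or of Epgn, 3 or more of the cycling genes Mki67, Top2a and Cdk1, or 5 or more of the collagen genes and Dcn were left out. The study compared skin treated outside the body with PBMC-sec, a secretome collected from irradiated mononuclear cells of the blood, with untreated skin at 8, 26 and 52 weeks of age. All animals were male wild-type C57BL/6 mice, an inbred strain, and each of the 6 droplet libraries (1 per age and treatment) pooled 3 animals. Untreated skin was dissociated straight after collection and treated skin was not, so the treatment and the time outside the body cannot be told apart. The labels give neither dose nor duration, nor whether the libraries of an age shared animals.

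PBMC-sec skin gave 127, 69 and 89 such cells at 8, 26 and 52 weeks, and untreated skin gave 129, 30 and 47. Their summed depth ran from 171870 UMIs (26-week untreated) to 513238 UMIs (8-week untreated), and no barcode of a member was shared between libraries, though 21 to 78 kept barcodes were shared by each pair of libraries. The 8-week untreated library stood apart: 4810 of its kept barcodes (52.1%), 34 of its 129 members among them, lay in groups with unusually even counts. These are called repeated barcodes here. The groups were found by clustering and dispersion, and whether their barcodes are copies of one another was not tested. This library was also the shallowest, with a median of 1128 UMIs per kept cell. The shares and the counts of calls that rest on this library are given with and without the repeated barcodes. Of 17 calls of named genes with all UMIs, 16 still passed without them, and Acat1, described with the differences in response, did not. The 52-week untreated members stood apart in RNA quality, with 11504 CPM (UMIs scaled to the same total in each library) of the noncoding RNA Gm26917, against 1233 to 3118 CPM in the other 5 libraries, and with 17.0% ribosomal protein UMIs against 22.9 to 30.5%.

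Hair follicles are renewed by stem cells that rest in the bulge, a niche in the outer root sheath below the sebaceous gland. SOX9 is the transcription factor that sets up and maintains these cells, and keratin 15 is a keratin of bulge and basal cells. BMP signalling, which induces the ID proteins, holds bulge stem cells in quiescence, whereas WNT and hedgehog signals accompany the onset of hair growth.

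Bulge genes beyond those that chose the cells were detected in them, and so were genes of the upper follicle. At least 1 of 20 bulge genes had a UMI in 447 of the 491 cells (91.0%), and at least 3 had one in 269 cells (54.8%). The comparison set was 11276 other basal keratinocytes, which met every other condition and lacked Sox9 or Krt15. The 2 counts above were not made in this set, so they do not by themselves set the members apart. Fst, 1 of the 20 genes, was found in 50.9% of the members and in 7.24 to 22.5% of other basal keratinocytes. Summed over the 20 genes, the members had 1169 to 3491 CPM per library, against 268 to 657 CPM in other basal keratinocytes. The sum hides rare genes of the list: Wif1 was found in 5 members, Fgf18 in 7, Bmp6 in 18 and Tcf7l1 in 27. After all cells were thinned to a common depth, Tcf7l1 and Wif1 had the higher share in the members in 3 libraries each. Itgb6 then had it in 2 and Fgf18 in 1, and the rest of the 20 genes in 4 to 6. The 12 upper follicle and isthmus genes summed to 3458 to 5035 CPM in the members, against 2767 to 3654 CPM in other basal keratinocytes. Of these genes, Plet1 was found in 270 members (55.0%) and Sostdc1 in 48 (9.78%). Both had the higher share in the members in 6 libraries, whereas Klk10 and Klf5 had it in 1. Since the rule itself separated the 2 sets, their differences are given as a description with no test.

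Postn, which encodes the matrix protein periostin, was detected in 49.6%, 15.9% and 44.9% of the cells of PBMC-sec skin at 8, 26 and 52 weeks, against 35.7%, 26.7% and 61.7% in untreated skin. Its share was lowest at 26 weeks in both treatments, and it was 3.56 to 11.4% in the other basal keratinocytes. Cd34, a surface marker of mouse bulge cells, was detected in 145 of the 491 cells (29.5%), most often in 8-week PBMC-sec skin (40.2%), and in 1.82 to 7.96% of other basal keratinocytes. Fibroblasts, marked by at least 20 collagen UMIs, carry both genes as well, with 24.7 to 53.9% of such cells positive for Cd34 and 1.64 to 51.4% for Postn. Fst, given above, was found in 38.0 to 73.0% of such cells. Genes that fibroblast-type cells almost lacked were therefore set beside these genes.

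Lhx2, a transcription factor of the bulge, was detected in 3.88 to 27.7% of the cells, against 0.313 to 2.60% of other basal keratinocytes and 0 to 0.389% of fibroblast-type cells. Tbx1, another bulge transcription factor, was detected in 7.25 to 25.5% of the cells, against 0.365 to 2.14% of other basal keratinocytes and 0 to 0.389% of fibroblast-type cells. Barx2, a homeobox factor of the follicle, was detected in 20.9 to 46.8%, against 5.86 to 11.2% of other basal keratinocytes and 0.469 to 4.47% of fibroblast-type cells. For each of these 3 genes, all 6 libraries had the higher share in the Sox9 Krt15 cells, and after thinning each cell to 1500 UMIs this held in 6 libraries for Tbx1 and Barx2 and in 5 for Lhx2. Pthlh, a secreted regulator of calcium and of growth, was the remaining marker of the population, with 23.3 to 40.4% of the cells positive, against 2.45 to 11.03% of other basal keratinocytes.

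**Figure D1:**
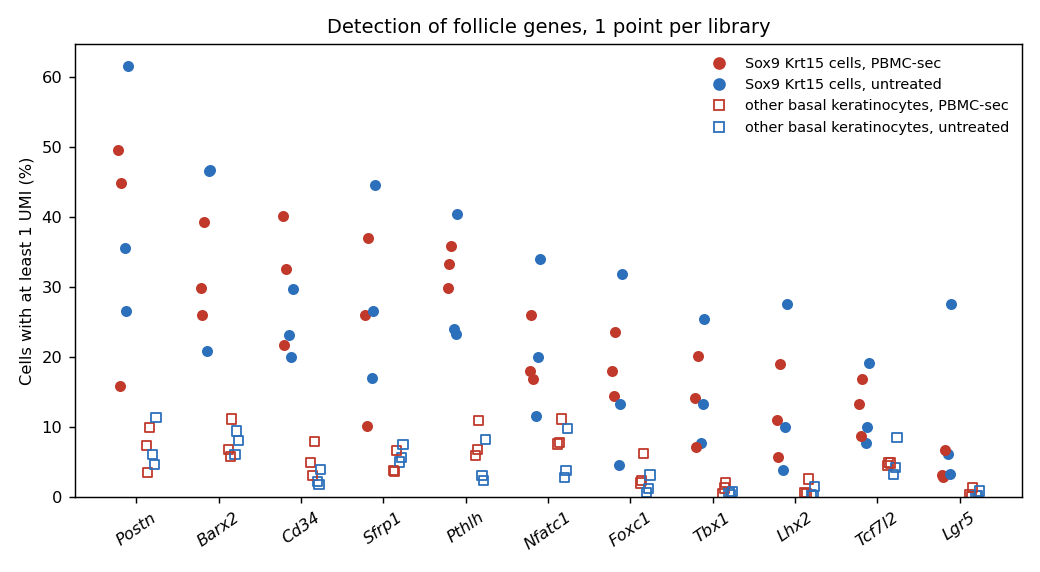
Share of cells with at least 1 UMI of 11 follicle genes (vertical axis, percent), with 1 point per library, filled circles for Sox9 Krt15 cells and open squares for other basal keratinocytes. For each gene shown, all 6 libraries had a higher share in the Sox9 Krt15 cells, and the highest Lgr5, Lhx2 and Postn shares (27.7%, 27.7% and 61.7%) were those of 52-week untreated skin.

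Among genes of the growing follicle and hair germ, Shh, the hedgehog ligand of the germ, had no UMI in 491 cells, which allows a share of cells with a UMI of up to 0.611% and says nothing of cells whose transcripts were not captured. Lef1, a WNT effector of the germ and matrix, was found in 2 cells. Krt75, a companion layer keratin, was found in 12 cells (2.44%). Cdh3, the P-cadherin of germ and matrix, was detected in 18.9 to 36.7% of the cells and in 16.8 to 37.6% of other basal keratinocytes, so that it was the higher in the Sox9 Krt15 cells in only 2 of 6 libraries. The hedgehog mediators Gli1, Gli2 and Ptch1 were found in 21, 28 and 24 cells (4.28%, 5.70% and 4.89%). Gli1, which was too low to be tested with age, reached 10.1% in PBMC-sec and 17.0% in untreated skin at 52 weeks, against 0.0893 to 1.23% of other basal keratinocytes over the 6 libraries.

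Summed over each list, melanocyte, Merkel, dermal papilla and endothelial markers reached at most 46.0, 76.7, 17.5 and 11.5 CPM in any library's members, against at most 65.7, 19.4, 176 and 76.4 CPM in all other kept cells. Of the 7 melanocyte markers Pmel, Tyrp1 and Tyr had no UMI in any member, of the 5 Merkel markers Krt20, Atoh1 and Sox2, of the 6 dermal papilla markers Alx4, Sox18 and Prom1, and of the 6 endothelial markers Kdr and Emcn. Others of these lists were found, among them Mitf in 34 cells, Krt18 in 21, Crabp1 in 13, Krt8 in 12 and Pecam1 in 4, and Mitf and Krt18 had a higher share than in other basal keratinocytes in 6 and 5 libraries. Fibroblast markers, which the rule itself limits, summed to 98.5 to 265 CPM. Immune markers summed to 295, 92.4 and 166 CPM in the members of PBMC-sec skin at 8, 26 and 52 weeks, against 380, 64.0 and 49.9 CPM in untreated skin, and to 406 to 535 CPM in all other kept cells. Pericyte and smooth muscle markers summed to 380 CPM in 52-week untreated members and 15.6 to 54.7 CPM in the members elsewhere, against 20.5 to 100.9 CPM in all other kept cells. Suprabasal markers, which the rule limits in part, summed to 6780 to 11939 CPM in the members, against 15862 to 24924 CPM in all other kept cells.

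Bulge transcripts were also compared between cells by the number of UMIs behind the rule, pooled over libraries. Summed CPM of the 20 bulge genes was 2740 in the 199 cells with 2 or more UMIs of both Sox9 and Krt15, and 1653 in the 80 cells with exactly 1 of each. Just outside the rule, it was 1221 in the 1043 basal keratinocytes with Sox9 and no Krt15, and 339 in the 1920 with Krt15 and no Sox9. It was 279 in the 8313 cells with neither. Lhx2, Tbx1 and Lgr5 together had 154, 87.5, 22.4, 8.77 and 2.93 CPM in these 5 classes, in the same order. The order did not hold within each library: cells with exactly 1 of each had less bulge CPM than cells with Sox9 alone in 8-week untreated (694 against 851), 26-week PBMC-sec (1188 against 1563) and 26-week untreated skin (201 against 685, from 3 cells with 1 of each). Cells with 2 or more of each had more than those with 1 of each in 6 of 6 libraries, and cells with Sox9 alone had more than cells with Krt15 alone in 6 of 6, though Lhx2, Tbx1 and Lgr5 together reversed between the first pair of classes in 8-week untreated and 26-week PBMC-sec skin.

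Clustering within the 491 cells gave 5 groups, each with cells from all 6 libraries, led by Snhg16 and Gas5, host genes of small nucleolar RNAs (121 cells), by Gm26917 and Neat1 (94 cells), by Pmp22 and Ddit3 (93 cells), by Csta1, Sprr1b and Stfa1 (92 cells) and by Ccl2, Gpx2, Cxcl1 and Thbs1 (91 cells). The libraries shared them unevenly. The Gm26917 and Neat1 group held 53.2% of the members of 52-week untreated skin, against 3.33 to 26.8% in the other libraries. The Csta1 and Sprr1b group held 38.8% and 36.7% in untreated skin at 8 and 26 weeks, against 2.25 to 15.9% in the other libraries. Leaving out either group therefore takes cells unevenly from the libraries. The groups are left unnamed.

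Sox9 Krt15 cells made up a larger share of basal-type keratinocytes in PBMC-sec skin than in untreated skin at each age. The share was 6.22% at 8 weeks in PBMC-sec skin (127 of 2041 cells, exact 95% interval 5.21 to 7.36%), against 2.80% in untreated skin (129 of 4607, 2.34 to 3.32%). At 26 weeks it was 4.59% in PBMC-sec skin (69 of 1503, 3.59 to 5.77%), against 1.54% in untreated skin (30 of 1949, 1.04 to 2.19%). At 52 weeks it was 11.99% in PBMC-sec skin (89 of 742, 9.74 to 14.6%), against 5.08% in untreated skin (47 of 925, 3.76 to 6.70%). The intervals, which cover counting error only, did not overlap within an age in these counts.

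The log2 ratio averaged 1.32 ± 0.22 (SD, n = 3 ages), with an exact two-sided sign-flip permutation p = 0.25, the smallest that 3 pairs allow. A deeper cell is more likely to show both genes, and the median depth of other basal keratinocytes at 8 weeks was 2572.5 UMIs in PBMC-sec skin against 1065.5 UMIs in untreated skin. After each cell was thinned to 1500 UMIs and shallower cells were left out, the shares were 3.04%, 1.17% and 4.21% in PBMC-sec skin at 8, 26 and 52 weeks, against 2.67%, 0.534% and 2.61% in untreated skin, a mean log2 ratio of 0.67 ± 0.47 (SD, n = 3 ages). Thinning left the share higher in PBMC-sec skin at 3 of 3 ages, with overlapping intervals at each. Without the repeated barcodes the 8-week untreated share was 5.07% (4.12 to 6.17%), which overlapped the PBMC-sec interval, the 8-week ratio of shares was 1.23 in place of 2.22, and the mean log2 ratio was 1.04 ± 0.66. With 2 or more UMIs of both genes the intervals overlapped at 26 weeks (1.08 to 2.45% in PBMC-sec skin against 0.393 to 1.20% in untreated skin) and at 52 weeks (3.53 to 6.81% against 1.76 to 3.96%). Of all kept cells, the members were 2.33%, 1.16% and 1.80% in PBMC-sec skin, against 1.397%, 0.538% and 1.28% in untreated skin.

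**Figure D2:**
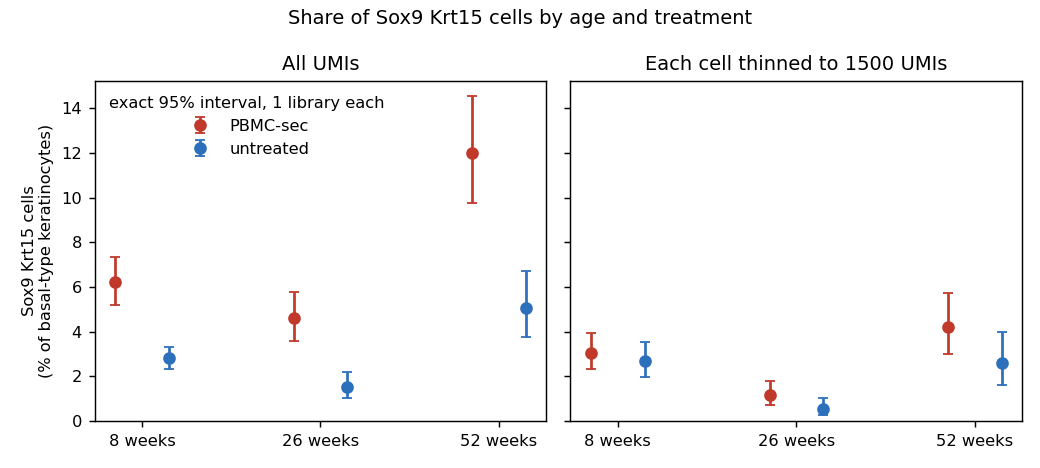
Sox9 Krt15 cells as a percent of basal-type keratinocytes by age, with exact 95% binomial intervals and 1 library per point, from all UMIs (left) and after thinning each cell to 1500 UMIs (right). Each PBMC-sec share lies above its untreated share, by 6.22% against 2.80% at 8 weeks before thinning and 3.04% against 2.67% after it.

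The response to PBMC-sec within these cells was tested on UMI sums per library, with age as a term, so that the p-values measure how evenly the treatment difference held over the 3 ages. Of 4395 genes tested, 2 rose and 1 fell in PBMC-sec skin (edgeR's quasi-likelihood test, Benjamini-Hochberg adjusted p under 0.05), which is 0.0683% of the genes in all (0.0455% higher and 0.0228% lower), and 274 had an unadjusted p under 0.05. DESeq2 called 1 gene, which fell. Without the repeated barcodes 5 genes rose and 1 fell, without the 52-week libraries 59 rose and 30 fell, and without the 8-week libraries 0 were called (116 at an unadjusted edgeR p under 0.05). Without the age term, which pairs the libraries, edgeR also called 0 of 3787 genes tested, with 217 at an unadjusted p under 0.05. All 3 genes were named after their values were seen, because each had, in at least 1 library, over 5 times the CPM in all other kept cells that it had in the members, where free RNA could add to it.

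Id2 was 1 of the 2 genes that rose. It encodes an inhibitor of basic helix-loop-helix transcription factors and is a direct target of BMP signalling (chr12:25093799-25097140 of GRCm38). It had 219, 88.7 and 83.2 CPM in PBMC-sec skin at 8, 26 and 52 weeks, against 48.7, 23.3 and 7.67 CPM in untreated skin. Every PBMC-sec library was above every untreated one. The log2 difference was 2.48 ± 0.42 (SE, n = 3 libraries each), with an edgeR adjusted p = 0.0399. At 8 weeks, 41 of its 75 UMIs in PBMC-sec skin came from 1 cell.

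Since single cells held much of several genes, the fit was repeated with each gene's top cell in every library set to the next-highest cell, an alternative chosen after seeing the data. Id2 again rose, by 2.05 ± 0.46 (log2, SE, n = 3 each, edgeR adjusted p = 0.032). Without the cluster led by Gm26917 and Neat1 its log2 difference was 1.39, with an edgeR adjusted p = 0.379, and without the 8-week libraries the difference was 2.82 with an adjusted p = 0.77. Thinning each cell to 1500 UMIs gave 1.99 (edgeR adjusted p = 0.266), and DESeq2 gave 2.56 (adjusted p = 0.06). With the top cells set, 20 of 4140 genes (0.483%) passed, 16 higher and 4 lower, and 2 of them, Id2 and Stfa1, were also called above.

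Id1 and Id3, the paralogs of Id2, passed in the same fit. Id3 (chr4:136143497-136145755) had 990.4, 673 and 388 CPM in PBMC-sec skin at 8, 26 and 52 weeks, against 333, 215 and 215 CPM in untreated skin. With all UMIs its log2 difference was 1.54 ± 0.35 (SE, n = 3 each, edgeR adjusted p = 0.117), and with top cells set it was 1.46 ± 0.33 (edgeR adjusted p = 0.0339). Each PBMC-sec library lay above all 3 untreated libraries. Over 24 alternatives, those with top cells set included, Id3 was called in 5 and Id1 in 8.

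Id1 (chr2:152736251-152737410) had 362, 351 and 142 CPM in PBMC-sec skin, against 203, 46.5 and 34.5 CPM in untreated skin. Its groups overlapped, the 8-week untreated value lying above the 52-week PBMC-sec value, while PBMC-sec was the higher at each age. Its log2 difference was 1.96 ± 0.43 with all UMIs (SE, n = 3 each, edgeR adjusted p = 0.102) and 1.75 ± 0.40 with top cells set (edgeR adjusted p = 0.0382). In other basal keratinocytes, where 3.95% of 11869 genes were called and 1.88% were called higher, Id3 rose by 1.28 ± 0.18 and Id1 by 0.95 ± 0.17 (log2, SE, n = 3 each, edgeR adjusted p = 0.0188 and 0.0336), so both also rose outside the Sox9 Krt15 cells. The response of Id2 was higher in the Sox9 Krt15 cells than in other basal keratinocytes (log2 difference in response 2.07 ± 0.48, SE, edgeR adjusted p = 0.00756). That call was not kept with top cells set.

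The promoters of Id2 and Id3 are printed because both genes were called with top cells set, though Id3 was not called with all UMIs. They span 250 bases before to 50 after the transcript start, from RefSeq on GRCm38.p6. Capitals mark the BMP SMAD motif GGCGCC and the SMAD box CAGAC or its reverse complement GTCTG.
Id2, chr12:25096043-25096342, minus strand: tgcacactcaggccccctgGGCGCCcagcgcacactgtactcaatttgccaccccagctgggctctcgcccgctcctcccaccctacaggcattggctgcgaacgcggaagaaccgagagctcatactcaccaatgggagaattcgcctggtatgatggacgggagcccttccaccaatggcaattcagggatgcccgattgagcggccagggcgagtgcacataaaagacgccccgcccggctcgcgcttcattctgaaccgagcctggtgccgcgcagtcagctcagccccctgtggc
Id3, chr4:136143572-136143871, plus strand: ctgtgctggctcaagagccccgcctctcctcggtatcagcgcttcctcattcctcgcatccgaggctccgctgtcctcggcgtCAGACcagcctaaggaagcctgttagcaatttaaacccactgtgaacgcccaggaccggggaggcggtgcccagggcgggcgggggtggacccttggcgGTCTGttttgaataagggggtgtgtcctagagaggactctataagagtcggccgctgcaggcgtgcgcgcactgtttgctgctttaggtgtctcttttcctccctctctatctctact
The Id2 window holds 1 GGCGCC, found in 11.9% of 32851 promoter windows on either strand, and no CAGAC or GTCTG. The Id3 window holds 2 matches to CAGAC or GTCTG, which occur in 49.6% of windows, and no GGCGCC.

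Of 23 BMP and TGF-beta genes listed, 13 passed the filter on low counts, 9 of them above 0, with a median log2 difference of 0.31, against 0.00 over all 4395 genes. Id2 was the only one called with all UMIs, where 0.0455% of genes were called higher, and Id1, Id2 and Id3 were the 3 of 12 called with top cells set, where 0.386% were. Smad7, an inhibitor of the pathway, had 134, 140.5 and 98.5 CPM in PBMC-sec skin, against 83.8, 46.5 and 95.9 CPM in untreated skin, and was not called (log2 difference 0.88 ± 0.36, SE, n = 3 each, edgeR adjusted p = 0.679). Fst, which encodes the activin and BMP antagonist follistatin, had 1256, 684 and 479 CPM in PBMC-sec skin, against 403, 529 and 322 CPM in untreated skin, and was not called either (edgeR adjusted p = 0.588). Both had the higher level in PBMC-sec skin at each age.

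**Figure D3:**
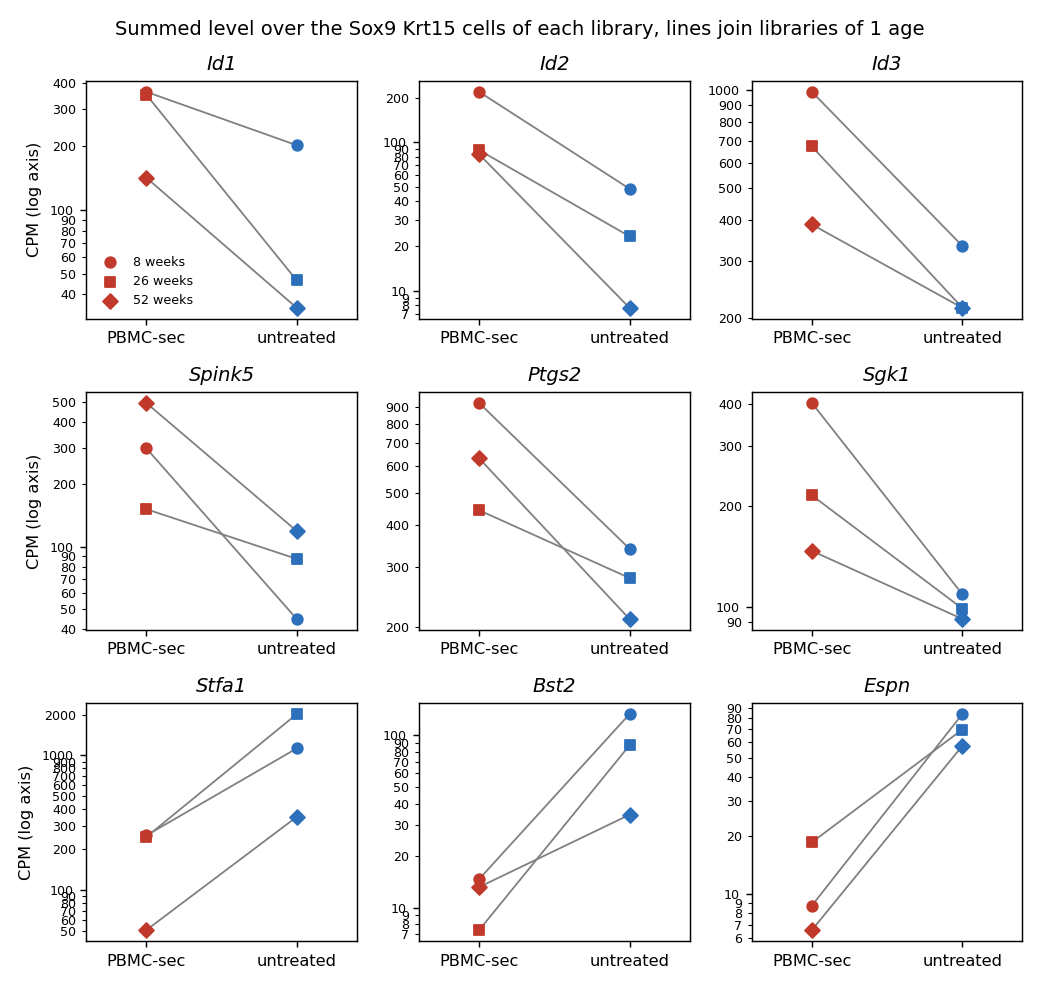
Level of 9 genes summed over the Sox9 Krt15 cells of each library (vertical axis, CPM, logarithmic), PBMC-sec on the left and untreated on the right of each panel, with a line joining the libraries of 1 age. Id2 and Stfa1 passed the edgeR test with all UMIs (log2 differences 2.48 and -2.47). The other genes shown missed the threshold there and passed with each gene's top cell set to the next-highest.

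Stfa1, which encodes the protease inhibitor stefin A1 and has near-identical neighbours that make its count uncertain, was the gene that fell. It had 254, 248 and 50.4 CPM in PBMC-sec skin at 8, 26 and 52 weeks, against 1126, 2025 and 349 CPM in untreated skin. No PBMC-sec value reached the lowest untreated one. The fitted log2 difference was -2.47 ± 0.38 (SE, n = 3 each, edgeR adjusted p = 0.0195) and -2.41 ± 0.35 with top cells set (edgeR adjusted p = 0.000209). The other basal keratinocytes carried more of it in each library, 708 to 2672 CPM. Without the cluster led by Csta1, Sprr1b and Stfa1 itself the log2 difference was -1.44 (edgeR adjusted p = 0.312), without the 8-week libraries it was -2.67 (edgeR adjusted p = 0.635), and in cells with 2 or more UMIs of Sox9 and Krt15 it was -1.17 (edgeR adjusted p = 0.734). The response of Stfa1 was lower than in other basal keratinocytes (log2 difference in response -1.50 ± 0.29, SE, edgeR adjusted p = 0.000257). With top cells set that difference was -1.42 (edgeR adjusted p = 0.00112).

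Tslp, an epithelial cytokine of allergic skin, was the remaining gene called. It had 11, 12 and 50 UMIs in PBMC-sec skin at 8, 26 and 52 weeks, against 0, 2 and 2 in untreated skin. At 52 weeks 44 of the 50 UMIs in PBMC-sec skin lay in 1 cell, and the gene was too low to be tested with top cells set. The log2 difference with all UMIs was 3.80 ± 0.68 (SE, n = 3 each, edgeR adjusted p = 0.0462), and other basal keratinocytes held 46.1 to 571 CPM.

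Other genes missed the threshold in the first fit with all UMIs and passed with top cells set. Spink5, a serine protease inhibitor of the skin barrier, had 298, 152 and 493 CPM in PBMC-sec skin, against 44.8, 87.3 and 119 CPM in untreated skin. All PBMC-sec values lay above all untreated ones, but single cells held much of the gene. At 52 weeks 1 cell held 149 of 225 UMIs in PBMC-sec skin and 1 cell held 25 of 31 in untreated skin. In 26-week untreated skin 1 cell held 11 of 15. With top cells set Spink5 differed by 2.79 ± 0.40 (log2, SE, n = 3 each, edgeR adjusted p = 0.000209). Sgk1, a serum- and glucocorticoid-induced kinase, had 403, 214 and 147 CPM in PBMC-sec skin, against 109, 98.9 and 92.1 CPM in untreated skin, again without overlap. Ptgs2, which encodes cyclooxygenase-2, had 923, 444 and 633 CPM in PBMC-sec skin, against 341, 279 and 211 CPM in untreated skin. Espn, which encodes the actin-bundling protein espin, had 8.76, 18.5 and 6.57 CPM in PBMC-sec skin, against 83.8, 69.8 and 57.6 CPM in untreated skin. The last 3 had log2 differences of 1.57 ± 0.35, 1.60 ± 0.33 and -2.59 ± 0.52 with top cells set (SE, n = 3 each, edgeR adjusted p = 0.0297, 0.0208 and 0.0158).

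Ccn2, a matricellular target of YAP and TGF-beta, had 31, 19 and 108 UMIs in PBMC-sec skin at 8, 26 and 52 weeks, against 0, 0 and 21 UMIs in untreated skin. Only the 52-week untreated library overlapped the PBMC-sec range. It passed with top cells set (log2 difference 2.91 ± 0.58, SE, n = 3 each, edgeR adjusted p = 0.0141) and, with all UMIs, missed the threshold (edgeR adjusted p = 0.0577). It was the only 1 of 15 tested bulge genes called in either fit, where 0.386% of all genes were called higher with top cells set.

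The bulge list as a whole had a median log2 difference of 0.55, with 13 of 15 genes above 0, where 50.1% of all genes were above 0. Its median in other basal keratinocytes was 0.53, and 4 of 19 tested genes were called higher and 1 lower, against 1.88% and 2.07% of all genes there. The follicle genes Cd34, Lhx2, Sfrp1 and Postn did not pass (log2 differences 0.56, 0.24, 0.34 and 0.53, edgeR adjusted p = 0.958, 0.985, 0.97 and 0.958). Lhx2 illustrates the spread over ages, with 55.5, 14.8 and 54.7 CPM in PBMC-sec skin, against 17.5, 17.5 and 119 CPM in untreated skin.

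Few genes of the immune and stress lists passed. Inflammatory cytokines and chemokines had a median log2 difference of 1.03 over 15 tested genes, 14 of them above 0, with Tslp called, where 0.0455% of all genes were called higher. With top cells set the median was 0.56 over 13 genes, and 2 were called, where 0.386% of all genes were called higher. Cxcl1, a neutrophil chemokine, had 695, 203 and 219 CPM in PBMC-sec skin, against 234, 69.8 and 142 CPM in untreated skin, and was not called (log2 difference 1.42 ± 0.35, SE, n = 3 each, edgeR adjusted p = 0.182). Immediate early genes, which tissue dissociation also induces, had a median of 0.49 with 19 of 20 above 0 and 0 called. In other basal keratinocytes more genes of both lists could be tested. There the cytokine and chemokine median was 0.04, with 14 of 25 above 0. The immediate early median was -0.01, with 10 of 22 above 0. In each list 1 gene was called higher there, where 1.88% of all genes were.

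Type I interferon genes had a median log2 difference of -1.11 over the 8 of 21 measured genes that passed the filter, 7 of them below 0, and 0 were called by edgeR with all UMIs. Bst2, an interferon-induced membrane protein, had 14.6, 7.39 and 13.1 CPM in PBMC-sec skin, against 132, 87.3 and 34.5 CPM in untreated skin, with no overlap. It missed the threshold with all UMIs and passed with top cells set, where 0.0966% of genes were called lower (log2 difference -2.54 ± 0.53, SE, n = 3 each, edgeR adjusted p = 0.0208). In other basal keratinocytes, where 2.07% of genes were called lower, 16 of 20 tested interferon genes fell. The response of Bst2 did not differ detectably between the 2 populations (log2 difference -0.29 ± 0.56, SE, edgeR adjusted p = 1). Antigen presentation genes had a median of -0.60, with 14 of 14 below 0 and 0 called, where 0.0228% of all genes were called lower. Their median in other basal keratinocytes was -0.68, with 15 of 15 below 0 and 4 called lower.

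Whether the response itself differed from that of the other basal keratinocytes was tested on 12 UMI sums with a term for population by treatment. Of 10554 genes, 31 passed (0.294%, edgeR adjusted p under 0.05), 28 with a higher and 3 with a lower response in the Sox9 Krt15 cells. DESeq2 called 0 of them, with 131 genes at an unadjusted p under 0.05 against 441 by edgeR. With top cells set, 13 genes passed (0.127%), 10 of them shared with the 31. Krt15, which chose the cells, was among them and is not a result.

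Thbs1, which encodes thrombospondin 1, had 2238, 617 and 554 CPM in the Sox9 Krt15 cells of PBMC-sec skin at 8, 26 and 52 weeks, against 625, 617 and 468 CPM in untreated skin. In other basal keratinocytes it had 216, 133 and 231 CPM in PBMC-sec skin, against 315, 433 and 412 CPM in untreated skin. It was thus lower in PBMC-sec skin at each age there, whereas in the Sox9 Krt15 cells it was the higher in PBMC-sec skin at 8 and 52 weeks and level at 26 weeks. The difference in response was 1.76 ± 0.31 (log2, SE, edgeR adjusted p = 4.28e-05), and without the 8-week libraries it was 1.42 (edgeR adjusted p = 1).

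Gadd45g, a growth arrest and stress gene, had 251, 73.9 and 78.8 CPM in the Sox9 Krt15 cells of PBMC-sec skin, against 29.2, 29.1 and 46.0 CPM in untreated skin. In other basal keratinocytes it had 67.6, 76.0 and 47.0 CPM in PBMC-sec skin, against 83.7, 68.0 and 89.1 CPM in untreated skin. Its groups did not overlap in the Sox9 Krt15 cells and overlapped in the others. The difference in response was 2.32 ± 0.45 (log2, SE, edgeR adjusted p = 0.000254), and without the 8-week libraries it was 1.5004 (edgeR adjusted p = 1).

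Ccn1, a matricellular YAP target, had 2618, 1457 and 829.8 CPM in the Sox9 Krt15 cells of PBMC-sec skin, against 1561, 570.2 and 564 CPM in untreated skin, and differed in response by 1.16 ± 0.29 (log2, SE, edgeR adjusted p = 0.0285). Hspb1, a small heat shock protein, had 6129, 3076 and 3823 CPM in PBMC-sec skin, against 1876, 2449.5 and 3250.2 CPM in untreated skin, and differed in response by 0.97 ± 0.25 (edgeR adjusted p = 0.0353). Both were higher in PBMC-sec skin at each age in the Sox9 Krt15 cells, and without the 8-week libraries the difference in response was 1.26 for Ccn1 and 0.50 for Hspb1, both with an edgeR adjusted p = 1. Without the 26-week libraries it was 0.70 for Ccn1 (edgeR adjusted p = 1) and 0.998 for Hspb1 (edgeR adjusted p = 0.0725). Acat1, a mitochondrial thiolase, had 15, 7 and 12 UMIs in PBMC-sec skin, against 13, 4 and 4 UMIs in untreated skin, and differed in response by 2.23 ± 0.57 (edgeR adjusted p = 0.0285). The Acat1 call was lost in 17 of 19 alternatives, among them each that left out a library or an age (edgeR adjusted p = 1 without the 8-week libraries) and the one without repeated barcodes (2.09, edgeR adjusted p = 0.0699). In other basal keratinocytes Acat1 fell by 1.44 (log2, edgeR adjusted p = 0.0117).

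Between 52 and 8 weeks, 3 genes rose and 6 fell of 4395 tested (0.205%, edgeR adjusted p under 0.05, 2 libraries per age), and DESeq2 called 2 higher and 5 lower. Without the repeated barcodes 3 rose and 6 fell, without the 52-week untreated library 62 rose and 14 fell, and without the 52-week PBMC-sec library 95 rose and 131 fell. Without the 8-week PBMC-sec library 1 rose and 1 fell, and without the cluster led by Csta1 and Sprr1b 0 were called (190 at an unadjusted edgeR p under 0.05). With top cells set 1 gene passed (0.0242%). Each of the 9 genes had, in at least 1 library, over 5 times the CPM in all other kept cells that it had in the members, and the part of free RNA in these calls was not tested. Between 26 and 8 weeks, 0 genes rose and 2 fell (0.0455%), with 105 at an unadjusted edgeR p under 0.05.

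Bgn, which encodes the matrix proteoglycan biglycan, rose. It had 35.03 and 180.4 CPM in PBMC-sec and untreated skin at 52 weeks, against 0 and 3.90 CPM at 8 weeks. These came from 8 and 24 cells at 52 weeks, against 0 and 2 cells at 8 weeks, and the 52-week untreated members were the highest. The log2 difference was 5.26 ± 0.79 (SE, n = 2 each, edgeR adjusted p = 0.00397), without the 52-week untreated library it was 4.33 (edgeR adjusted p = 0.498), and without the 8-week PBMC-sec library it was 4.89 (edgeR adjusted p = 0.287). Other basal keratinocytes had 9.18 and 53.8 CPM at 52 weeks, against 8.45 and 26.5 CPM at 8 weeks. Bgn was found in 57.8 to 88.8% of fibroblast-type cells, and fibroblast markers summed to 5373 CPM in all other kept cells of the 52-week untreated library, against 1361 to 2137 CPM in the other 5. After thinning to 1500 UMIs its share was above that of other basal keratinocytes in 2 of 6 libraries. Col4a1, a collagen of the basement membrane, had 59.1 and 149.7 CPM in PBMC-sec and untreated skin at 52 weeks, against 8.76 and 19.5 CPM at 8 weeks, with no overlap (log2 difference 2.72 ± 0.54, SE, n = 2 each, edgeR adjusted p = 0.0488). Without the 52-week untreated library the Col4a1 difference was 2.57 (edgeR adjusted p = 0.122), DESeq2 gave it an adjusted p = 0.456 and edgeR with RLE scaling 0.0556, and it no longer passed under 11 alternatives in all. The 52-week untreated members, highest in both genes, were also those with the most Gm26917 and pericyte marker RNA, and the part of either in the result was not tested.

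Sprr2a3, a small proline-rich protein of the cornified envelope, fell. It had 2 and 1 UMIs in PBMC-sec and untreated skin at 52 weeks, against 51 and 53 UMIs at 8 weeks. Its log2 difference was -4.84 ± 0.84 (SE, n = 2 each, edgeR adjusted p = 0.0144) and -4.93 with top cells set (edgeR adjusted p = 0.00273). It did not pass without the 8-week PBMC-sec library (-3.64, edgeR adjusted p = 0.712), without the cluster led by Csta1 and Sprr1b (0.211) or by Gm26917 and Neat1 (0.272), without cells scored as doublets (0.0923) or with at most 5% mitochondrial UMIs (0.0569). Sprr2a3 belongs to a cluster of near-identical genes, so its count is uncertain.

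The remaining calls with age rested on 1 or a few cells. Cd74, the invariant chain of MHC class II, had 2 and 3 UMIs in PBMC-sec and untreated skin at 52 weeks, against 98 and 315 UMIs at 8 weeks, of which 91 and 304 lay in 1 cell of each library. Its log2 difference was -5.85 ± 0.61 (SE, n = 2 each, edgeR adjusted p = 0.00011), and without cells scored as doublets it was -4.87 (edgeR adjusted p = 0.258). The class II genes H2-Aa, H2-Ab1 and H2-Eb1 and the lymphoid and myeloid gene Rgs1 fell with it, and each had at least 54 UMIs in 1 cell of the 8-week untreated library. Mmp13, a collagenase, was called higher at 52 weeks, where 461 of its 463 UMIs in PBMC-sec skin lay in 1 cell, and with top cells set its log2 difference was 0.17 (edgeR adjusted p = 0.971).

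**Figure D4:**
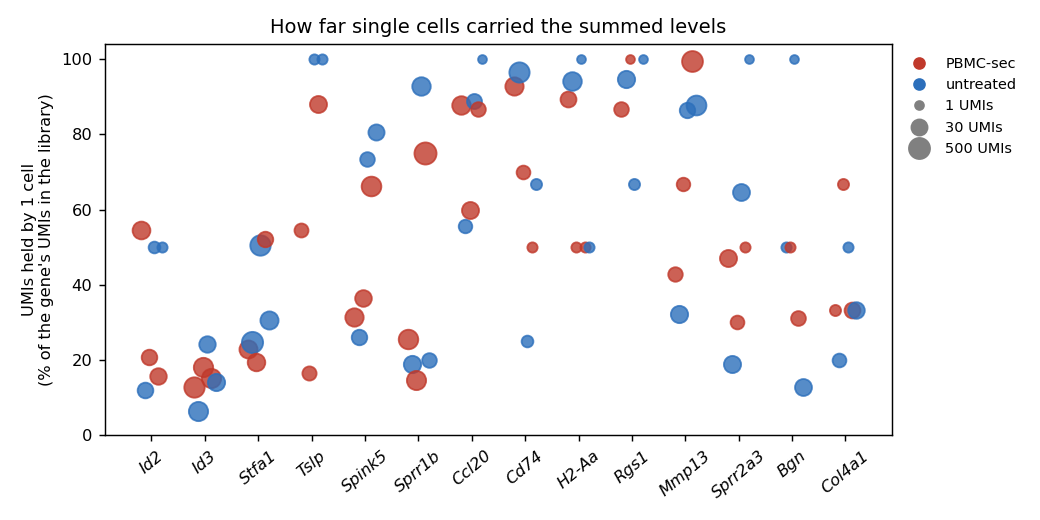
Percent of a gene's UMIs held by the single cell with the most, for 14 genes and each library with at least 1 UMI (larger points, more UMIs; red PBMC-sec, blue untreated). Id3 stays low, whereas Cd74 and Mmp13 reach 304 of 315 UMIs (8-week untreated) and 461 of 463 UMIs (52-week PBMC-sec) in 1 cell.

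Several follicle genes were detected in more cells at 52 weeks, without passing or entering the test. Gli1, a target of hedgehog signalling, was found in 1, 1 and 9 cells in PBMC-sec skin at 8, 26 and 52 weeks (0.787%, 1.45% and 10.1%), against 2, 0 and 8 cells in untreated skin (1.55%, 0% and 17.0%). At 26 weeks untreated skin gave 30 cells, too few to show a share this low. Both 52-week libraries lay above the 4 younger ones, also after thinning to 1500 UMIs, where their shares were 7.79% in PBMC-sec and 6.52% in untreated skin, against 0 to 1.82% at the younger ages. In other basal keratinocytes Gli1 was found in 0.0893 to 1.23% of cells. It was too low to be tested.

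Sfrp1, a secreted WNT inhibitor of the bulge, was detected in 37.1% and 44.7% of the cells in PBMC-sec and untreated skin at 52 weeks, against 26.0% and 17.1% at 8 weeks. The log2 difference with age was 1.32 ± 0.45 (SE, n = 2 each, edgeR adjusted p = 0.582). Lhx2 was detected in 19.1% and 27.7% of the cells at 52 weeks, against 11.02% and 3.88% at 8 weeks, with a log2 difference of 1.24 ± 0.55 (SE, n = 2 each, edgeR adjusted p = 0.791). Neither passed, and in both genes the 2 ages did not overlap in detection. Lgr5, a receptor of bulge and germ stem cells, was found in 6.74% and 27.7% of the cells at 52 weeks, against 3.15% and 6.20% at 8 weeks. Lrig1, a stem cell gene of the upper follicle, was found in 22.5% and 59.6% at 52 weeks, against 14.96% and 14.7% at 8 weeks. Of these 4, Lgr5 and Lrig1 were highest in the 52-week untreated members by a wide gap. After thinning to 1500 UMIs, Lhx2 was found in 11.7% and 13.04% of the cells at 52 weeks, against 5.81% and 1.98% at 8 weeks, and Sfrp1 in 23.4% and 26.1%, against 16.3% and 8.91%. Thinned Lgr5 shares were 1.30% and 10.9% at 52 weeks, against 2.33% and 0.99% at 8 weeks, so that only the 52-week untreated library stayed high. Without the repeated barcodes the 8-week untreated shares were 5.26% for Lhx2, 21.1% for Sfrp1, 8.42% for Lgr5, 17.9% for Lrig1 and 2.11% for Gli1, so that Lgr5 at 52 weeks in PBMC-sec skin no longer lay above both 8-week shares.

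The bulge list had a median log2 difference with age of 0.34, 11 of 15 genes above 0, against a median of 0.03 over all genes, and 0 were called. Median member depth was 3728 and 3887 UMIs in PBMC-sec and untreated skin at 52 weeks, against 1935 and 3074 UMIs at 8 weeks.

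**Figure D5:**
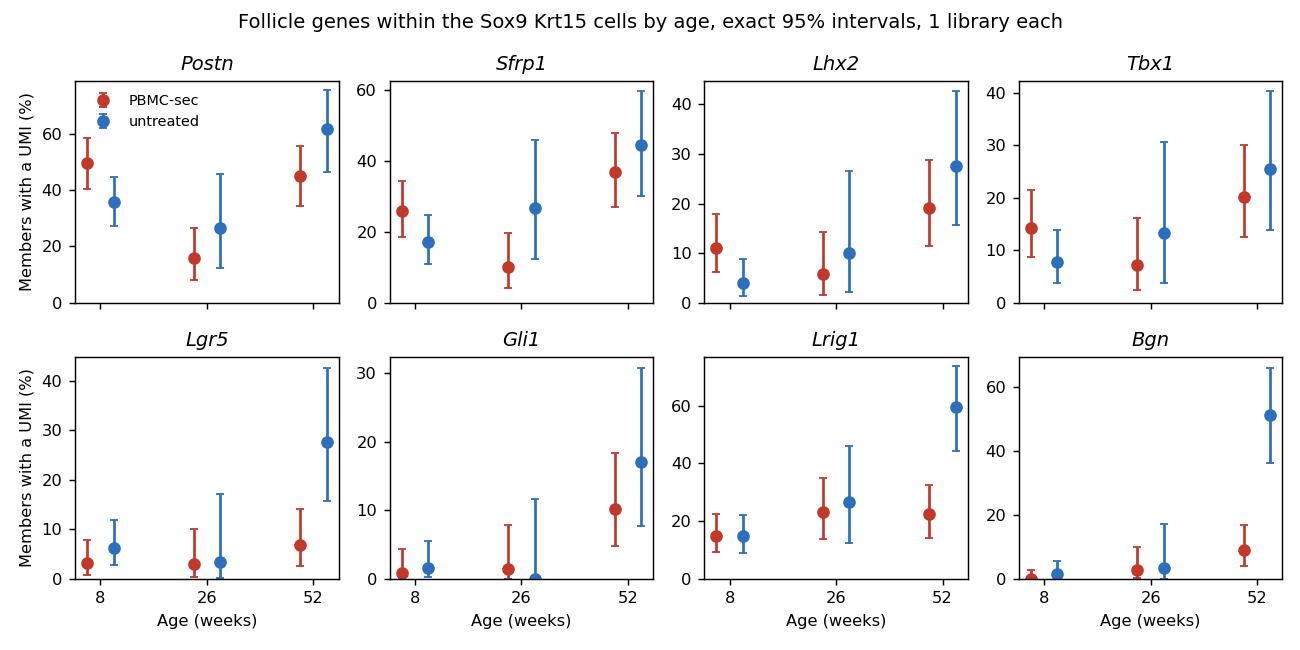
Percent of Sox9 Krt15 cells with at least 1 UMI of 8 genes by age in weeks, with exact 95% binomial intervals, 1 library per point, PBMC-sec in red left of untreated in blue. Gli1 was found in 10.1% and 17.0% of the cells at 52 weeks and in at most 1.55% at younger ages, and the Lrig1 and Bgn shares were highest in 52-week untreated skin.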

How the data were processed

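UMI counts per gene and cell barcode were deposited as 6 matrices of 32285 genes; per the submitters' processing notes they were made with Cell Ranger 5.0.1 on mm10 (GRCm38). The sources used here do not say whether introns were counted. Cells with at least 500 UMIs, 300 genes and at most 10% mitochondrial UMIs were kept, and the members were chosen by the stated rule. The members, gene lists and tests were chosen with earlier results of these data known. By the rule for naming genes, those of a comparison had to pass it with at least 30 UMIs and no sign of free RNA (at most 5 times the member CPM in all other kept cells). For treatment and for age they also had to go in 1 direction at every age or in both treatments. For the difference in response between populations no direction was required, and only this comparison gave genes that met the rule. Of each list, the called and the 4 most abundant genes were considered, and others named were chosen after their values were seen.

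Raw UMI sums over members were tested per library with edgeR 4.0.16 (R 4.3.3; TMM factors, filterByExpr, terms for age and treatment, 2 residual degrees of freedom), and with DESeq2 1.42.0 as an alternative. Age, which the labels give, pairs the libraries. With 1 pooled library per age and treatment, p-values measure the spread of differences over ages. CPM are UMIs scaled to the same total in each library's member sum. Intervals are exact binomial (Clopper-Pearson, 95%) and, like the limit of 3 counts for a 0, cover counting error only. The median log2 change over all genes was within 0.1 of 0. Scrublet (scanpy 1.11.5) called 0 doublets in each library at its automatic threshold, so doublets were left in, and as an alternative the highest scores were removed at 0.8% per 1000 barcodes. Repeated barcodes were groups of at least 10 cells with a dispersion of at most 2 between their counts. Data for the treatment comparison were simulated with 1 dispersion for all genes and no difference with age (4062 to 4113 genes run). In these, 1.12% of 2-fold, 76.7% of 4-fold and 98.9% of 8-fold changes were recovered, with 0, 2 and 5 false calls. Genes with most of their UMIs in 1 cell were not imitated, so these rates may not hold for the real sums.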

Additional observations from a re-analysis of the deposited data

Results flagged for a closer look

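The response to PBMC-sec differed between the Sox9 Krt15 cells and other basal keratinocytes, by the population-by-treatment term (edgeR adjusted p under 0.05), in 31 genes, of which 5 met the rule for naming genes. All others but Krt15, which chose the cells, exceeded 5 times the member CPM in all other kept cells of a library. The log2 difference in response was 2.32 for Gadd45g, 2.23 for Acat1, 1.76 for Thbs1, 1.16 for Ccn1 and 0.97 for Hspb1. DESeq2 called none of the 5 (it called 0 genes, 131 having an unadjusted p under 0.05). With each gene's top cell set to the next-highest, Gadd45g, Thbs1 and Ccn1 passed (edgeR adjusted p = 0.00113, 2.58e-07 and 0.00921), whereas Acat1 and Hspb1 both had an edgeR adjusted p = 0.0942.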

How the results depend on the processing

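The share of Sox9 Krt15 cells kept its direction at every age under each alternative that recomputed it, with a mean log2 ratio of 0.67 to 1.36. The rest of the 9 alternatives left out 1 age at a time and reused the ratios of the ages that stayed. Those could not reverse, and their means were 1.20 to 1.41. The 3 genes called for treatment became 1 with at most 5% mitochondrial UMIs, 1 with DESeq2, 1 after thinning to 1500 UMIs, 1 without the Gm26917 and Neat1 cluster, 5 in cells with 2 or more UMIs of Sox9 and Krt15, 6 without repeated barcodes and 47 without the filter on low counts (14292 genes tested). With top cells set they were 20, and then 11, 16 and 71 without the 8-, 26- and 52-week pair. Without the replicate block, that is without the age term, edgeR called 0 of 3787 genes tested, with 217 at an unadjusted p under 0.05. Leaving out 1 library or 1 age at a time gave 0 to 90 treatment calls, with 0 where the 8-week PBMC-sec library or the 8-week pair was left out (145 and 116 genes at an unadjusted edgeR p under 0.05) and 82 to 90 where a 52-week library or pair was.

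The 9 genes called between 52 and 8 weeks became 64 without the filter, 1 with top cells set, 2 without cells scored as doublets, 3 without the Gm26917 and Neat1 cluster and 0 without the Csta1 and Sprr1b cluster (190 at an unadjusted edgeR p under 0.05). Leaving out 1 library gave 2 to 226. The 31 genes that differed in response became 0 with DESeq2, 5 without population-by-age terms, 64 in cells with 2 or more UMIs of both genes, 14 after thinning and 13 with top cells set. Leaving out 1 library or age gave 16 to 52. None of the single results recomputed here reversed, but Mmp13, 1 of the 20 genes called for treatment with top cells set, had log2 differences from -3.22 to 2.30 over its alternatives. Of single genes under these alternatives, 177 values kept their side of the threshold and 107 no longer passed. The causes of these shifts were not tested. With 30 to 129 cells per library, a 2-fold change was rarely recovered in the simulated data. The alternatives with top cells set or a cluster removed were chosen after seeing the data.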
